A study of Bos taurus with 6 samples.

Results

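SLC7A11 (ENSBTAG00000034075) and ALDH1L2 (ENSBTAG00000006326), a gene of cystine uptake and a gene of folate metabolism, were described in MAC-T cells with and without inhibition of miR-375. They are 2 of the 29154 genes counted. Both were taken from the study's list of differentially expressed genes, which was selected on these same counts by an unadjusted p under 0.05 and a log2 fold change over 1 in size in DESeq2. Their difference between the groups is therefore given as a description and was not tested.

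MAC-T is an established line of bovine mammary epithelial cells. The cells were transfected with an inhibitor NC, a negative control oligonucleotide, at 100 nM or with a miR-375 inhibitor at 100 nM, and RNA was taken after 48 h. Each group had 3 libraries, named replicates 1 to 3, and the totals of counts ran from 14479278 to 16324556 per library. The study states that the experiment was done in triplicate but not that the replicates were separate cultures. The p-values below therefore speak of these samples alone, and the spread between them may be technical. In edgeR the spread of a gene is estimated in part from all genes (median of 51.4 prior degrees of freedom). Its p-values thus do not rest on the gene's own replicates alone. The level of miR-375 itself was not analysed here.

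SLC7A11 is the transport subunit of the cystine/glutamate antiporter (system xc-). It brings in cystine, which the cell reduces to cysteine for the synthesis of glutathione, its main thiol antioxidant. ALDH1L2 is a mitochondrial enzyme that oxidizes 10-formyltetrahydrofolate to tetrahydrofolate and carbon dioxide and yields NADPH. Both genes are known targets of ATF4, the transcription factor of the integrated stress response, and SLC7A11 is also a target of NRF2, which controls genes of oxidant defence.

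In the inhibitor NC group, replicates 1 to 3 gave 249, 251 and 156 counts of SLC7A11, and under the miR-375 inhibitor they gave 81, 93 and 100. After normalization to library size by TMM, the counts were 265, 239 and 149.7 in the inhibitor NC group and 83.4, 97.7 and 95.6 in the miR-375 inhibitor group. Every miR-375 inhibitor library was lower than every inhibitor NC library, and the nearest values were those of inhibitor NC replicate 3 and miR-375 inhibitor replicate 2. Such a separation with lower values under the inhibitor was found in 7.09% of the 20755 genes with at least 1 count, and since SLC7A11 was selected on this contrast nothing is read from it. The group means were 218 ± 60.6 (SD, n = 3) and 92.2 ± 7.71 (SD, n = 3) normalized counts. The log2 fold change was -1.24, with a standard error of 0.15 in edgeR and 0.21 in DESeq2. The 2 are computed differently. DESeq2 reports its own standard error. All edgeR standard errors given here are the size of the log2 fold change over the square root of the F statistic of its quasi-likelihood test. In these bulk libraries, fewer cells with the transcript and less transcript per cell cannot be told apart.

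The 2 groups differed in how much SLC7A11 varied. In the miR-375 inhibitor group its coefficient of variation was 8.36%, where counting error alone gives 10.5% at a mean of 91.3 counts. In the inhibitor NC group it was 27.8%, against 6.76% from counting error, with replicate 3 well below the other two libraries. The SD of its log2 values in the inhibitor NC group was 0.41, and 0.63% of the 11742 genes with a mean normalized count of at least 50 had a larger one in that group. In the miR-375 inhibitor group the SD was 0.11, and 38.1% of these genes had a larger one. This difference in spread was not tested.

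For ALDH1L2, inhibitor NC replicates 1 to 3 gave 1451, 1179 and 583 counts, and miR-375 inhibitor replicates 1 to 3 gave 411, 682 and 323. The normalized counts were 1545, 1123 and 559 in the inhibitor NC group and 423, 716 and 309 in the miR-375 inhibitor group. The groups overlapped, as miR-375 inhibitor replicate 2 was above inhibitor NC replicate 3. In descending order the libraries were inhibitor NC replicates 1 and 2, miR-375 inhibitor replicate 2, inhibitor NC replicate 3, and miR-375 inhibitor replicates 1 and 3. The group means were 1076 ± 495 (SD, n = 3) and 483 ± 210.3 (SD, n = 3) normalized counts.

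The log2 fold change of ALDH1L2 was -1.16. Its standard error depended on the fit. It was 0.17 in edgeR, and 0.31 and 0.32 in edgeR with the stricter filters (at least 10 counts in total, filterByExpr). It was 0.53 in DESeq2, where it is computed differently, and in edgeR's robust fit. The SD of the log2 values of ALDH1L2 was 0.74 in the inhibitor NC group and 0.59 in the miR-375 inhibitor group. With single libraries left out the edgeR standard error ran from 0.08 (without inhibitor NC replicate 3) to 0.26 (without inhibitor NC replicate 1). The cause was not tested. The difference depended on single libraries: it was -0.81 without inhibitor NC replicate 1 and -0.91 without miR-375 inhibitor replicate 3, both under 1 in size, and -1.55 without miR-375 inhibitor replicate 2. For SLC7A11 the log2 fold change lay between -1.45 (without inhibitor NC replicate 3) and -1.08 (without inhibitor NC replicate 1) when each of the 6 libraries was left out in turn.

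ALDH1L2 varied within both groups far beyond counting error. Its coefficient of variation was 46% in the inhibitor NC group and 43.6% in the miR-375 inhibitor group, where counting error gives 3.06% and 4.6%. The highest library of a group was 2.76 times the lowest in the inhibitor NC group and 2.32 times in the miR-375 inhibitor group. Of the 11742 genes with a mean normalized count of at least 50, 0.0596% had a larger SD of log2 values in the inhibitor NC group and 0.111% in the miR-375 inhibitor group. Few genes with a mean normalized count of at least 50 were thus as uneven between replicates, in either group.

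**Figure D1:**
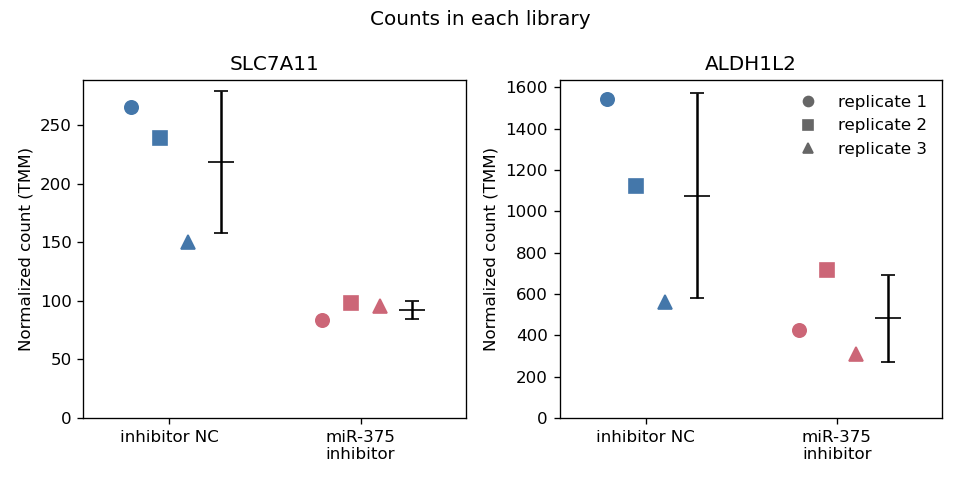
Normalized counts (TMM, vertical axis from 0) of SLC7A11 and ALDH1L2 in the 3 inhibitor NC libraries (blue) and the 3 miR-375 inhibitor libraries (red). The marker shape gives the replicate number, and the black bars are the group mean and SD. The SLC7A11 groups do not overlap, whereas ALDH1L2 in miR-375 inhibitor replicate 2 (716) is above inhibitor NC replicate 3 (559).

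Compared by replicate number, both genes were lower under the inhibitor at each number. SLC7A11 in the miR-375 inhibitor library was 31.5%, 40.9% and 63.8% of the inhibitor NC library of the same number for replicates 1, 2 and 3. ALDH1L2 was 27.4%, 63.8% and 55.2%. For both genes replicate 1 gave the largest difference. Whether libraries of the same number were handled together is not stated in the labels, so these ratios describe libraries that have a number in common.

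Taken about the group means on the log2 scale, SLC7A11 deviated by 0.30, 0.16 and -0.46 in inhibitor NC replicates 1 to 3 and by -0.12, 0.07 and 0.05 in miR-375 inhibitor replicates 1 to 3. ALDH1L2 deviated by 0.63, 0.18 and -0.81 and by -0.10, 0.64 and -0.54. Within the inhibitor NC group the 2 genes had the same order of libraries, with replicate 3 far below the others. Within the miR-375 inhibitor group both were highest in replicate 2, but ALDH1L2 was lowest in replicate 3 and SLC7A11 in replicate 1, where its differences were no larger than counting error.

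Over the 6 libraries, the deviations of the 2 genes had a Pearson r of 0.79 and a Spearman rho of 0.77, given as a description. Without the 2 libraries farthest from the median of SLC7A11, r was 0.32, and without inhibitor NC replicate 3 alone it was 0.41, so the relation rests on few libraries. Without miR-375 inhibitor replicate 3 it was 0.97. Of the other 11741 genes with a mean normalized count of at least 50, 8.99% had a higher r with SLC7A11 than ALDH1L2 had, and 14.1% had a higher r with ALDH1L2 than SLC7A11 had. Deviations that ran together to this extent were thus frequent in these libraries. With the group difference kept in, r was 0.87 and rho 0.89, which the choice of both genes on the same contrast raises.

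The order of the libraries by ALDH1L2 was also their order along the first principal component of 14152 genes whose mean count was at least 10, computed without the 2 genes. This component held 36% of the variance. Its scores were 15.6, 9.79 and -5.47 in inhibitor NC replicates 1 to 3 and -7.64, 2.32 and -14.6 in the miR-375 inhibitor replicates, so it did not separate the groups. The second component held 22.7% and did separate them, narrowly, with scores of 3.32, 3.34 and 11.5 against -6.45, -14.3 and 2.58. Over the 6 libraries the Pearson r of the first component was 0.99 with ALDH1L2 (Spearman rho 1) and 0.83 with SLC7A11 (rho 0.89). Without the 2 libraries farthest from its median, r was 0.98 for ALDH1L2 and 0.71 for SLC7A11. With the total of counts, r was -0.49 for ALDH1L2 (rho -0.6) and -0.11 for SLC7A11 (rho -0.31), and both signs turned without the 2 libraries farthest from the median total (r = 0.2 and 0.53). These 4 relations are descriptions over the same 6 libraries, and the part of this shared variation in the group difference of the 2 genes was not tested. The groups did separate by the share of counts on the top 10 genes (6.85%, 6.9% and 6.92% against 7.25%, 7.43% and 7.12%). They also separated by the number of genes with a count (18168, 18341 and 18174 against 18017, 18030 and 18137). The part of these 2 measures in the difference was not tested either.

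Other genes of the same pathways were taken from 7 lists of 212 distinct genes, of which 30 could be paired with an identifier, the 2 genes included. Of the 28 others, 7 had no count in any library and 21 were tested across all genes with edgeR's quasi-likelihood test and Benjamini-Hochberg adjustment. At an adjusted p under 0.05, 1 of the 21 was lower in the miR-375 inhibitor group and 0 were higher, where 1.69% of all 20755 genes were called, 350 in number. With a filter of at least 10 counts in total or with filterByExpr, edgeR called 0 genes (1972 and 1844 at an unadjusted p under 0.05), and DESeq2 called 75, with 0 list genes among the calls of each. The count of all genes was 0 in edgeR without inhibitor NC replicate 1 (1543 genes at an unadjusted p under 0.05) and 756 without inhibitor NC replicate 3, and the count of list genes ran from 0 to 4 with single libraries left out. With all libraries, 4 of the 21 list genes had an unadjusted p under 0.05 in edgeR, as had 2206 of all genes tested (10.6%). The median log2 fold change of the 19 with a mean normalized count of at least 10 was 0.03, against 0.00 over all genes tested, and their values ran from -0.20 to 0.37. None of the 19 came near the size of the difference of SLC7A11 or ALDH1L2, but most list members, among them SLC3A2, GCLC, ATF4 and NFE2L2, were not paired and were not analysed here.

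Of the cystine and glutathione list, CBS, which joins serine and homocysteine on the way to cysteine, was measured. Inhibitor NC replicates 1 to 3 gave 1334, 1407 and 1123 counts, against 1075, 1134 and 1107 under the miR-375 inhibitor. The groups overlapped, at means of 1279.7 ± 179 (SD, n = 3) and 1119 ± 67.5 (SD, n = 3) after normalization. The log2 fold change was -0.19 (standard error 0.07, edgeR adjusted p = 0.22, from 0.001 to 0.8 over the alternatives, the lowest without inhibitor NC replicate 3). With the replicate block CBS was called (edgeR adjusted p = 0.043). Its deviations from the group means ran with those of ALDH1L2 (r = 0.95, rho = 0.94) and of SLC7A11 (r = 0.92, rho = 0.89). Without the 2 libraries farthest from the median of CBS, r was 0.95 and 0.5. GPX5, an epididymal glutathione peroxidase, had no counts.

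In the folate list, GART, an enzyme of purine synthesis that uses 10-formyltetrahydrofolate, averaged 1274 ± 67.9 (SD, n = 3) normalized counts with the inhibitor NC and 1335 ± 38.6 (SD, n = 3) with the miR-375 inhibitor, and the log2 ratio was 0.07 (standard error 0.06, edgeR adjusted p = 0.77). SLC19A1, the reduced folate carrier, averaged 223 ± 14.1 (SD, n = 3) and 253 ± 29.7 (SD, n = 3), and the log2 ratio was 0.18 (standard error 0.11, edgeR adjusted p = 0.6). In both genes the groups overlapped and the call was not made. FTCD, a liver enzyme of histidine breakdown that uses folate, had no counts. The other 3 paired genes of purine synthesis and salvage, PRPS1, GMPS and HPRT1, had log2 fold changes between 0.03 and 0.06, with none called.

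Among the other amino acid transporters, the cationic amino acid carrier SLC7A3 and its relative SLC7A14 had no counts, SLC6A14 had between 5 and 11 counts per library, and SLC38A5 had at most 2. Of the integrated stress response list, EIF2A and EIF2B5, a subunit of the exchange factor of eIF2, were measured. Their log2 fold changes were -0.04 and 0.10, and neither was called. The groups did not overlap for either gene, with EIF2A lower and EIF2B5 higher under the miR-375 inhibitor. ATF4 and its other targets on that list were not paired and were not analysed here.

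In the NRF2 and oxidant defence list 5 genes were tested and none was called. BACH1, a repressor at the sites that NRF2 binds, averaged 904 ± 62.9 (SD, n = 3) and 828 ± 67.8 (SD, n = 3) normalized counts, and the log2 ratio was -0.13 (standard error 0.07, edgeR adjusted p = 0.57). SOD1, a superoxide dismutase, SELENOT, a selenoprotein, and ABCC5, an efflux transporter, had log2 fold changes between -0.02 and 0.02. The carbonyl reductases CBR1 and CBR3 had no counts.

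The iron and lipid peroxidation list held the called gene, ACSL4, which joins polyunsaturated fatty acids to coenzyme A. Inhibitor NC replicates 1 to 3 gave 5793, 7189 and 7145 counts of ACSL4, against 5594, 5127 and 6443 under the miR-375 inhibitor. After normalization it had 6625 ± 395 (SD, n = 3) and 5768 ± 386 (SD, n = 3). Each miR-375 inhibitor library was below each inhibitor NC library, as in 7.09% of 20755 genes. The fall was small, with a log2 fold change of -0.20 (standard error 0.05, edgeR adjusted p = 0.024, from 4.1e-05 to 0.29 over the alternatives). The call was lost with DESeq2 (adjusted p = 0.095), with a filter of at least 10 counts in total (edgeR adjusted p = 0.21) or filterByExpr (0.2), and on leaving out inhibitor NC replicate 1 or 2 or miR-375 inhibitor replicate 1 or 2 (edgeR adjusted p between 0.14 and 0.29). CP, HEPH, PCBP3 and LSS of the same list had log2 ratios of -0.06, -0.11, 0.10 and 0.18 and were not called, though LSS reached an edgeR adjusted p of 0.013 without inhibitor NC replicate 3, and TF had no counts.

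TFRC, the transferrin receptor that takes up iron, ran opposite to ALDH1L2. It had 340, 490 and 723 counts in inhibitor NC replicates 1 to 3 and 614, 474 and 873 in miR-375 inhibitor replicates 1 to 3. It was lowest where ALDH1L2 was highest and highest where ALDH1L2 was lowest. The groups overlapped, at 508 ± 169.6 (SD, n = 3) and 655 ± 169 (SD, n = 3) normalized counts, and the log2 ratio was 0.37 (standard error 0.12). It was 0.15 without miR-375 inhibitor replicate 3, 0.18 without inhibitor NC replicate 1 and 0.66 without inhibitor NC replicate 3. The edgeR adjusted p was 0.14, between 2.4e-10 and 0.82 over the alternatives, with the lowest without inhibitor NC replicate 3. The edgeR adjusted p was 1.1e-04 without miR-375 inhibitor replicate 2 and 7.9e-05 with the replicate block, so TFRC was called in these fits. The adjusted p was 0.74 in DESeq2 and 0.76 in edgeR's robust fit. The deviations of TFRC and ALDH1L2 had r = -0.99 and rho = -0.94 over the 6 libraries, and r = -0.97 without the 2 libraries farthest from the median of TFRC. With SLC7A11 the values were r = -0.75, rho = -0.89 and r = -0.68.

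**Figure D2:**
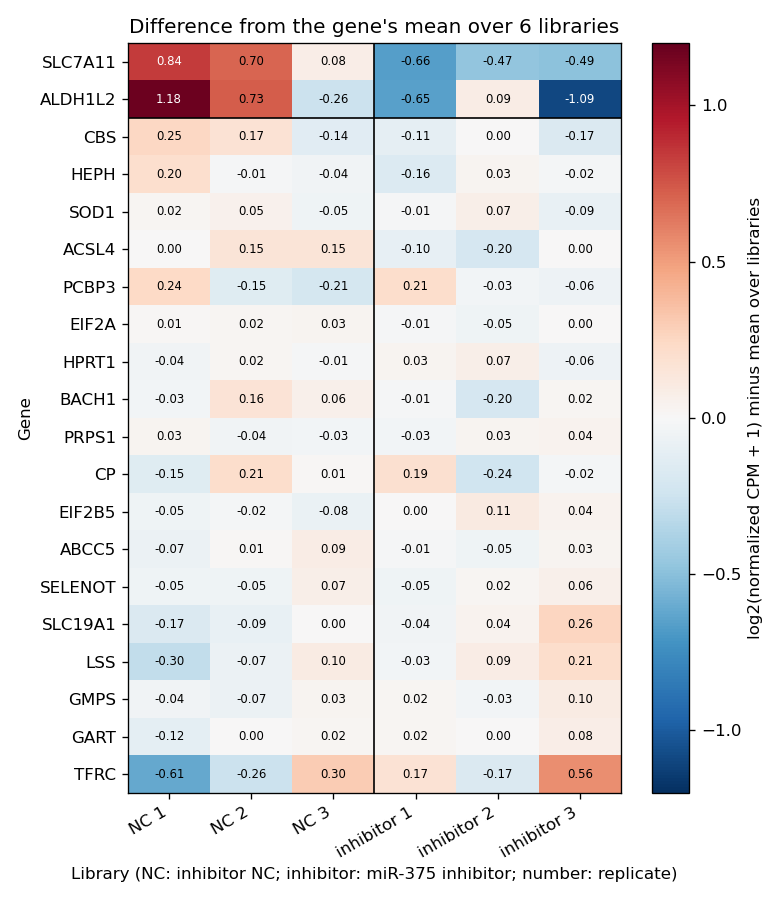
Difference of each library (columns) from the gene's mean over the 6 libraries, in log2(normalized CPM + 1), for SLC7A11, ALDH1L2 and 18 paired list genes (rows, ordered by their r with ALDH1L2). Red is above and blue below the mean. The differences of ALDH1L2 run from -1.09 to 1.18, while those of the list genes other than TFRC stay between -0.30 and 0.26.

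**Figure D3:**
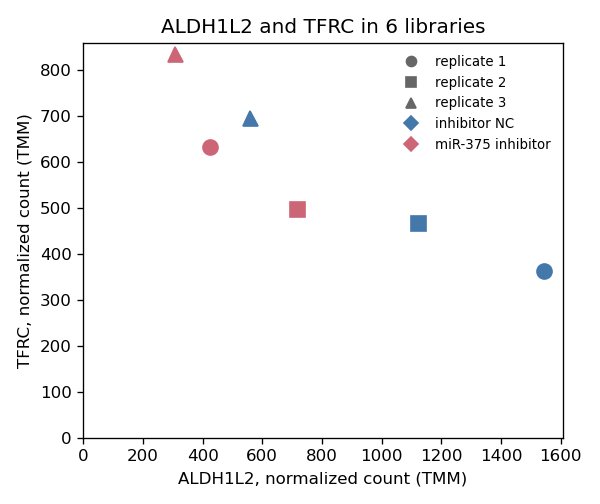
Normalized counts (TMM) of ALDH1L2 (horizontal axis) and TFRC (vertical axis) in the 6 libraries, with both axes from 0. Colour gives the group and shape the replicate number. TFRC was singled out from the list after its values were seen, and it is highest (834) where ALDH1L2 is lowest (309).

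The genes most like the 2 were ranked among the 644 others with a symbol and a mean normalized count of at least 50. By log2 values over the 6 libraries, TNIK, NMD3, NCEH1, APEX2 and OGT were most like SLC7A11, with r between 0.94 and 0.96. By deviations from the group means they were ARAF, TNIK, MYH15, RSPH1 and SMIM11A (r from 0.94 to 0.99). For ALDH1L2 the genes were B4GALT4, HLCS, DHRS3, IL6 and SPICE1 by log2 values (r from 0.98 to 0.99) and WDR13, B4GALT4, HLCS, AP2M1 and OGT by deviations (r of 0.99 or above after rounding). These are the highest of many values over few libraries. By deviations, 6.71% of all 11741 genes had an r over 0.9 with ALDH1L2 and 2.84% with SLC7A11.

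Some of these genes followed ALDH1L2 closely in counts. IL6 and DHRS3 are on the same list of the study as ALDH1L2, so they were selected on the same contrast, which raises their r by log2 values. IL6, an inflammatory cytokine, had 336, 273 and 134 counts with the inhibitor NC and 109, 141 and 82 with the miR-375 inhibitor. DHRS3, a retinal reductase, had 119, 110 and 49 against 36, 55 and 31. Each had its lowest value of both groups in replicate 3 and its highest value under the inhibitor in replicate 2, as ALDH1L2 had. HLCS, which attaches biotin to carboxylases, had 232, 222 and 158 against 112, 152 and 113 counts. OGT, the O-GlcNAc transferase, had 3571, 3873 and 3165 against 2433, 2729 and 2420. Its groups did not overlap, where 7.09% of 20755 genes were lower in this way. The ranking by log2 values includes the group difference and the ranking by deviations does not, and no test of likeness was made.

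Markers of cell types were read in the same libraries. Of 25 epithelial markers 7 were paired, with CXADR the most abundant and ILDR1 at 0, and their summed normalized counts were 1267, 1308 and 1364 in the inhibitor NC libraries and 1158, 1103 and 1229.9 under the miR-375 inhibitor. Of these CLDN1, a tight junction protein, was called, falling from 180 ± 30.3 (SD, n = 3) to 124 ± 7.36 (SD, n = 3) normalized counts at a log2 ratio of -0.53 (standard error 0.13, edgeR adjusted p = 0.022, from 6.7e-04 to 0.49 over the alternatives). Its call was lost with at least 10 counts in total or with filterByExpr (edgeR adjusted p = 0.18 in both) and on leaving out inhibitor NC replicate 1 or 2 or miR-375 inhibitor replicate 1 or 3 (edgeR adjusted p between 0.056 and 0.49). DESeq2 gave CLDN1 no adjusted p, so it was not called there. TP63, LIPH and CXADR had log2 ratios of -0.70, -0.19 and -0.12, and the TP63 groups did not overlap (7.09% of 20755 genes were lower in this way). MUC4 and MUC20, with at most 7 counts in a library, had 0.69 and 0.53. None of these markers was called. The keratins and the milk protein genes were not paired and were not analysed here. Of 16 leukocyte markers 11 were paired, CD86, CD40LG and SH2D1A were at 0, and the sums were 59.6, 67.6 and 81.6 against 77.2, 89.3 and 92.7, with CD80 the most abundant. Of 13 fibroblast markers 5 were paired, with sums of 24055, 23990 and 23809.5 against 24536, 25344 and 24886 and COL6A1 the most abundant. COL6A1 and COL6A2 had log2 ratios of 0.11 and 0.09 with groups that did not overlap, and FSTL1 had one of -0.01. Separation toward higher values was not counted over all genes, so nothing is read from it. None of these fibroblast genes was called (edgeR adjusted p = 0.29, 0.63 and 0.94), though COL6A1 was called higher with the replicate block (edgeR adjusted p = 0.046). LUM and BGN had at most 11 counts in a library, LUM with 11, 7 and 0 against 0, 0 and 2, and were not called (edgeR adjusted p = 0.22 for LUM, from 0.028 without inhibitor NC replicate 3 to 0.8 without inhibitor NC replicate 1). ADIPOQ, the 1 paired adipocyte marker of 6, was at 0, and JAM2, the 1 paired endothelial marker of 8, was between 332 and 356. The part of these marker levels in the values of SLC7A11 and ALDH1L2 was not tested.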

How the data were processed

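For each of the 6 libraries the authors deposited raw counts per gene. Their notes name HISAT2, featureCounts (Subread) and the UMD3.1 build, which was not checked, so no coordinates are given. Symbols came from the study's supplementary lists and paired 1410 of 29154 identifiers. The members and lists were chosen with earlier results of these data known.

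Counts were fitted with edgeR 4.0.16 (R 4.3.3): TMM, a minimum of 1 count in some library, quasi-likelihood test, Benjamini-Hochberg adjustment over 20755 genes. Normalized counts are counts scaled to the mean TMM library size. Correlations used log2(normalized CPM + 1), in Python 3.11.15. The procedures were tested on simulated data. Named genes were the 2 genes, every paired pathway list gene but 1 (with values from a mean normalized count of 10), and the 5 genes most like each by r and by r of deviations. TFRC, CBS, the single markers and the genes opposite to ALDH1L2 were picked for description after their values were seen. Alternatives were DESeq2 1.42.0 and its size factors, 2 stricter filters, a robust fit, a replicate block, Ensembl identifiers alone, another pseudocount, CPM without logarithm, and omission of each library. A promoter motif search was not run, and that 1 list gene, kept in the counts and medians, is not reported here.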

Additional observations from a re-analysis of the deposited data

How the results depend on the processing

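The log2 fold changes of SLC7A11 and ALDH1L2 were below 0 under every alternative run, between -1.45 and -1.08 and between -1.55 and -0.81 with single libraries left out. The count of 350 genes called became 75 with DESeq2 and 0 in edgeR with at least 10 counts in total or with filterByExpr, where 1972 and 1844 genes had an unadjusted p under 0.05. With single libraries left out it ran from 0 (without inhibitor NC replicate 1, with 1543 genes at an unadjusted p under 0.05) to 756 (without inhibitor NC replicate 3). It was 167 without inhibitor NC replicate 2, and 125, 452 and 204 without miR-375 inhibitor replicates 1, 2 and 3. The list genes called, 1 of 21, became 0 with DESeq2 and with both filters, and 0 to 4 with a library left out. The cause was not tested.

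With the replicate block, 840 genes and 3 list genes were called (ACSL4, CBS with edgeR adjusted p = 0.043 and TFRC with 7.9e-05). The log2 fold changes of SLC7A11 and ALDH1L2 in this fit were -1.21 and -1.13, with standard errors of 0.13 and 0.07. The log2 ratios of same-numbered libraries were more spread than these errors convey, with SDs of 0.52 for SLC7A11 and 0.65 for ALDH1L2. The measures are unlike, as the SDs are of single ratios and the standard errors are of a mean difference. The standard errors also rest in part on spread pooled over genes. The marker COL6A1 was called higher with the block (edgeR adjusted p = 0.046). Same-numbered libraries correlated in their deviations at r = -0.09, 0.21 and 0.46 over 11742 genes, and inhibitor NC replicates 2 and 3 correlated best with their own number but replicate 1 with miR-375 inhibitor replicate 2 (0.37). As not every same-numbered r was over 0.1, the numbers were not taken as pairs.

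The correlation of 0.79 was 0.91 with CPM without logarithm, and from 0.41 to 0.97 with a library left out; a shift of up to 0.1, a margin set after the counts were seen, was taken as no change. Of 242 values of single list genes and CLDN1 under the alternatives, those DESeq2 gave no adjusted p for left out, 213 kept direction and call, 13 lost the call (ACSL4, CLDN1), 6 gained it (CBS, TFRC, LSS) and 10, all of uncalled genes with a library left out, changed sign: SOD1 to 0.01 and 0.03, CP to 0.06 in both cases, ABCC5 to 0.02 and 0.00, PCBP3 to -0.01 and -0.02, HPRT1 and SELENOT to 0.00. With single libraries left out, the lowest and highest were -0.06 and 0.03 for SOD1, -0.19 and 0.06 for CP, -0.06 and 0.02 for ABCC5 and -0.02 and 0.28 for PCBP3. They were -0.30 and -0.11 for CBS, 0.08 and 0.25 for SLC19A1, 0.02 and 0.10 for GART, -0.17 and -0.06 for BACH1, -0.17 and -0.02 for HEPH and 0.08 and 0.28 for LSS.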

Other observations

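Other genes ran opposite to ALDH1L2 as TFRC did, and they were picked after their values were seen. By log2 values over the 6 libraries, the lowest r with ALDH1L2 among the 644 other genes with a symbol were those of NSDHL, FTSJ1 (-0.99), RRP1 (-0.97), TFRC (-0.96) and DNAJB11 (-0.95). NSDHL had 649, 759 and 818 counts in inhibitor NC replicates 1 to 3 and 794, 726 and 880 in the miR-375 inhibitor replicates. By deviations, 8.25% of 11741 genes had an r under -0.9 with ALDH1L2, so that a profile opposite to it was about as frequent as one like it (6.71% over 0.9).

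By the study's thresholds in DESeq2, 63 genes passed. ALDH1L2 ranked 1 and SLC7A11 ranked 3 among them by mean normalized count over the 6 libraries, at 779 and 155, where the median of the 63 was 10.2 and 56 of them were under 50. The counts are not divided by transcript length, so the ranks speak of counting precision and not of abundance between genes.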
